A study of Mus musculus with 12 samples.

Results

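The genes described here are 6 matrix metalloproteinases (*Mmp2*, *Mmp9*, *Mmp12*, *Mmp14*, *Mmp15* and *Mmp16*) and the 4 tissue inhibitors of metalloproteinases (*Timp1*, *Timp2*, *Timp3* and *Timp4*), chosen by symbol from 18180 measured genes. All 10 were found, each as 1 gene, and their levels were followed across 4 populations of cells sorted from mouse glioblastomas (GBMs). In GAL1+ over GAL1- cells, *Mmp12*, *Mmp9*, *Mmp14*, *Mmp2* and *Timp2* rose and *Mmp15*, *Mmp16* and *Timp4* fell. In that comparison 58.2% of all measured genes passed the threshold used. PDGFRA+ and PDGFRA- cells were not separated at this threshold by any of the 10, nor by any of the 18180 genes.

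Matrix metalloproteinases are zinc-dependent enzymes that cut collagens, laminins, elastin and many cell surface proteins, and most are made as inactive proenzymes that another protease has to cleave. *Mmp2* and *Mmp9* encode secreted gelatinases, *Mmp12* encodes the secreted macrophage elastase, and *Mmp14*, *Mmp15* and *Mmp16* encode membrane-type enzymes that stay anchored in the cell membrane. TIMPs bind the active site of these enzymes and block it, and TIMP2 also takes part in the activation of the proenzyme of MMP2 on MMP14. In gliomas these enzymes are studied for the remodelling of brain matrix along which tumor cells and myeloid cells move.

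The mice carried conditional (Cre/Lox) overexpression of human EGFR, Cdkn2A-/- and a conditional luciferase reporter on a mixed background (labelled C57Bl/6J, 129S4, FVBN/J and Balb/cJ, to which the study's methods add SJL), and tumors arose in place after a Cre lentivirus was injected into the brain. Cdkn2A was therefore absent from host cells as well as from tumor cells, and no tumor-free brain was in the sorted set. EGFR+ cells of end-stage GBMs were sorted by PDGFR or by Galectin-1, which gave PDGFRA+, PDGFRA-, GAL1+ and GAL1- cells (labelled PDGFR+, PDGFR-, Gal1+ and Gal1-). The study describes the cells as CD45-, although the antibodies listed for the sort are against EGFR, PDGFR and Galectin-1. Tumors T3, T4 and T5 each gave all 4 populations, so each group had 3 samples and there were 12 bulk RNAseq libraries.

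Levels are log2 CPM, that is, the reads of a gene scaled to a fixed number of reads per library, as the authors deposited them. Reads recovered from these values ranged from 9851175 to 24117541 per library, and the log2 CPM of 3 reads, taken as the limit of detection for counting error only, lay between −2.99 and −1.44. None of the 10 genes was at or under that limit in any library, and the fewest reads behind a value were 21. The PDGFRA- libraries were the least alike, with a lowest correlation of 0.890 within that group across genes, against 0.942 to 0.956 within the other groups. This value does not single out a library. In the T5 library of PDGFRA- cells *Egfr* was at 8.16, against 10.18 in T3 and 10.02 in T4. It was low in GAL1+ cells too, at 9.02, 8.53 and 7.68 in T3, T4 and T5. GAL1- cells had 10.65, 10.46 and 10.42, and PDGFRA+ cells had 10.50, 10.11 and 9.93. Some of the results that use the T5 library of PDGFRA- cells are given with and without it. The targets of the sorts were lower in the negative than in the positive cells on average, with *Lgals1* (Galectin-1) at 6.38 ± 0.39 (SD, n = 3) in GAL1- and 7.66 ± 0.27 in GAL1+ cells and *Pdgfra* at 8.70 ± 1.38 in PDGFRA- and 10.30 ± 0.45 in PDGFRA+ cells, although *Pdgfra* was also at 10.55 ± 0.24 in GAL1- cells. Markers of leukocytes were present in all 4 populations, against the CD45- description. The summed CPM of the 10 of 10 pan-leukocyte markers measured ran from 79.7 to 217 in GAL1-, from 2777 to 3955 in GAL1+, from 694 to 3063 in PDGFRA- and from 633 to 1493 in PDGFRA+ libraries. In these bulk samples, fewer cells of a type and less RNA per cell cannot be told apart.

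Sequence before the start of transcription was read for 7 of the 10 genes from RefSeq (GRCm38.p6), and *Mmp2*, *Mmp9* and *Mmp16* had no entry. It is shown for 3 genes that were higher and 2 that were lower in GAL1+ than in GAL1- cells, as the 250 bases upstream of each listed start, 5′ to 3′ on the gene's strand, so that the windows of genes that moved in opposite directions can be read beside each other. Capitals mark matches on either strand to 4 sets of letters. The letters searched for AP-1 were TGAGTCA. For a TATA box, which binds the TATA-binding protein, they were TATAAA. For a GC box, the site of Sp1-like factors, they were GGGCGG. For PU.1, a factor of myeloid cells, they were GAGGAAGT. No match overlapped another. *Mmp12* has 2 listed starts, at chr9:7344147-7344396 (+) and chr9:7347124-7347373 (+). The window of *Mmp14* is chr14:54431348-54431597 (+), that of *Timp2* is chr11:118355412-118355661 (-), that of *Mmp15* is chr8:95352046-95352295 (+) and that of *Timp4* is chr6:115252206-115252455 (-).
Mmp12, start 1: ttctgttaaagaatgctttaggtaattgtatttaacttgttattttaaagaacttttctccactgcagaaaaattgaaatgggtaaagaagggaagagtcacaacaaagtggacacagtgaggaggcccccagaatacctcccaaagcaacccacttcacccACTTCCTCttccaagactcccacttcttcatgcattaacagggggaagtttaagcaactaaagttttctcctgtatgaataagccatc
Mmp12, start 2: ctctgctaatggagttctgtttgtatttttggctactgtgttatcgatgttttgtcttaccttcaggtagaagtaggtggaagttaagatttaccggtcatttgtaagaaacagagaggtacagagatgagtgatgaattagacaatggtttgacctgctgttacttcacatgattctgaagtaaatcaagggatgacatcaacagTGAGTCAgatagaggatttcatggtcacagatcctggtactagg
Mmp14: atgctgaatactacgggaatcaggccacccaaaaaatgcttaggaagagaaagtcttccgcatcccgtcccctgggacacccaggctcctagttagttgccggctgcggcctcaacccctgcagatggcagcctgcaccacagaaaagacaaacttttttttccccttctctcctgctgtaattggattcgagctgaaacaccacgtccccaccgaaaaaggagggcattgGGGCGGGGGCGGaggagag
Timp2: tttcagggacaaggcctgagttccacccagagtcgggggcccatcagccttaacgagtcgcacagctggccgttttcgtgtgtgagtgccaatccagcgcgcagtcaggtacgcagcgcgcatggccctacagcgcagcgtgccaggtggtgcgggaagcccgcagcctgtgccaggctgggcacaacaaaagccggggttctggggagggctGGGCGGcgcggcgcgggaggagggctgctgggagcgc
Mmp15: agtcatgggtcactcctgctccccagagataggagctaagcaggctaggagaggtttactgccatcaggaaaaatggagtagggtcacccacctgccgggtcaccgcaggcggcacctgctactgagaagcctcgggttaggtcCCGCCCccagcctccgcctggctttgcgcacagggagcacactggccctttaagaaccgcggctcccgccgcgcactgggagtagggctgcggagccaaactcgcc
Timp4: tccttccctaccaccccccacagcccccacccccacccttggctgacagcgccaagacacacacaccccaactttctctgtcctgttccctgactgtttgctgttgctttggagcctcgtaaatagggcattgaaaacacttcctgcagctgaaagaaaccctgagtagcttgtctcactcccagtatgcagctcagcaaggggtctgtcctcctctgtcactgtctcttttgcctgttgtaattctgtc

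The window before start 1 of *Mmp12* held the PU.1 letters, beginning 88 bases before the start, and the window before start 2 held the AP-1 letters, beginning 44 bases before it. Among 32851 mouse promoters of the same length, 2.44% held the PU.1 letters and 4.46% the AP-1 letters. Neither set of letters was found in the other windows printed. *Mmp14* had GC boxes 19 and 13 bases before its start, *Timp2* had 1 at 37 bases and *Mmp15* had 1 at 106 bases, against 32.7% of all promoters with at least 1. *Timp4* held none of the 4 sets of letters, and TATAAA, present in 12.4% of promoters, was in none of the windows. *Timp1* and *Timp3*, not printed, each held 1 GC box, at 8 and 15 bases. GC content was 40.0% and 39.6% in the windows of *Mmp12*, 55.2% in *Mmp14*, 63.6% in *Mmp15*, 68.0% in *Timp2* and 53.6% in *Timp4*, beside a median of 52.4% over all promoters. A match of letters is a description of the window and was not tested as a binding site.

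To compare levels between genes, CPM was divided by the length of each gene's joined exons. On this scale, log2 CPM per kilobase, *Mmp15* was the highest of the 10 in GAL1- cells (7.86 ± 0.26), PDGFRA+ cells (7.57 ± 0.46) and PDGFRA- cells (6.49 ± 1.38), where its SD reached that of *Mmp14* (5.37 ± 0.45). In GAL1+ cells *Timp2* (5.80 ± 0.59), *Mmp14* (5.57 ± 0.27) and *Mmp15* (5.21 ± 1.13) were the highest 3, and their SDs overlapped. *Mmp12* was the lowest in GAL1- cells (−2.35 ± 0.55), whereas in GAL1+ cells it was at 2.77 ± 0.66 and *Timp4* was the lowest (−1.05 ± 1.05). So by the mean the membrane-type enzyme *Mmp15* led the family in 3 of the 4 populations, in PDGFRA- cells within the spread. In the T5 library of PDGFRA- cells, before division by length, *Mmp14* (7.86) was above *Mmp15* (7.37). The lowest member was an elastase in GAL1- cells and an inhibitor in GAL1+ cells. *Timp1* and *Timp3* lay between 3.86 and 4.41 in every population on this scale.

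**Figure D1:**
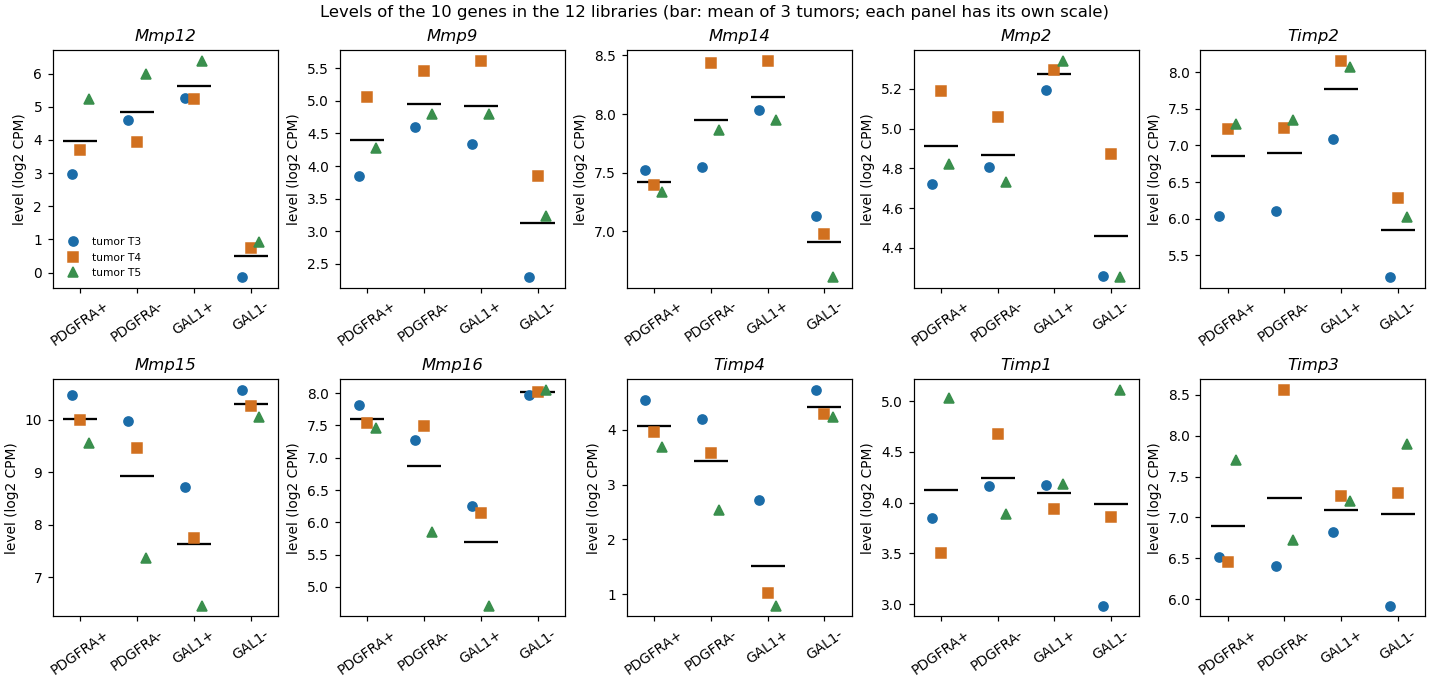
Level of each of the 10 genes in log2 CPM (vertical axis, own scale in each panel) in the 4 sorted populations. Points are libraries, with the tumor given by shape and colour, and bars are the means of 3 tumors. *Mmp12*, *Mmp9*, *Mmp14*, *Mmp2* and *Timp2* were lower in every GAL1- than in every GAL1+ library, *Mmp15*, *Mmp16* and *Timp4* were higher, and the points of *Timp1* and *Timp3* mix.

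The comparison of GAL1+ with GAL1- cells asks how cells sorted as EGFR+ differ by Galectin-1. *Egfr* itself was lower in every GAL1+ than in every GAL1- library. By limma's moderated test with the tumor as a block, 8 of the 10 genes passed a Benjamini-Hochberg adjusted p of 0.05 over all genes, 5 higher (28.9% of all genes were called higher) and 3 lower (29.3%). In all, 58.2% of genes were called in this comparison. The same 8 genes had no overlap between their GAL1+ and GAL1- libraries, which held for 60.6% of all genes. The median log2 fold change of the 10 was 0.46, beside −0.03 over all genes, and it joins changes in opposite directions. All 8 kept their direction in each of the 3 tumors and were called under every one of the 12 alternative settings, including the fit without the tumor block.

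*Mmp12* had the widest range of the 10 genes. Its log2 CPM in T3, T4 and T5 was −0.13, 0.72 and 0.91 in GAL1- cells and 5.25, 5.24 and 6.39 in GAL1+ cells, from 25 to 46 reads and from 475 to 1038 reads. It was at 4.61, 3.94 and 5.99 in PDGFRA- cells and at 2.98, 3.68 and 5.23 in PDGFRA+ cells. GAL1- libraries were therefore below all others, and T5 was the highest tumor in each population. *Mmp12* rose in GAL1+ over GAL1- cells by a log2 fold change of 5.12 (SE 0.34, 34.9-fold, adjusted p = 3.93e-05). The summed CPM of the 8 of 8 macrophage markers measured was likewise lowest in GAL1- libraries (21.8 to 78.1). It ran from 1892 to 2360 in GAL1+, from 432 to 2202 in PDGFRA- and from 421 to 881 in PDGFRA+ libraries, so that PDGFRA- and GAL1+ libraries overlapped, and T5 was the highest tumor for it in each population too. Of the defining macrophage markers, *Lyve1* was at or under 3 reads in 3 libraries, and the part of these cells in the level of *Mmp12* was not tested.

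*Mmp9*, the larger of the gelatinases, had a log2 CPM of 2.30, 3.84 and 3.24 in GAL1- cells of T3, T4 and T5 and of 4.33, 5.61 and 4.80 in GAL1+ cells. In PDGFRA- cells it was at 4.60, 5.45 and 4.79, and in PDGFRA+ cells at 3.85, 5.05 and 4.28. T4 was the highest tumor in all 4 populations, and PDGFRA- (4.95 ± 0.45) and GAL1+ cells (4.91 ± 0.65) did not differ beyond their spread. *Mmp9* rose in GAL1+ over GAL1- cells by 1.79 (log2, SE 0.15, 3.45-fold, adjusted p = 4.05e-05).

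*Mmp2*, the other gelatinase, moved least of the genes that passed. It was at a log2 CPM of 4.26, 4.87 and 4.26 in GAL1- cells of T3, T4 and T5 and at 5.19, 5.29 and 5.34 in GAL1+ cells. PDGFRA- cells (4.81, 5.06 and 4.73) and PDGFRA+ cells (4.72, 5.19 and 4.82) lay between them, with overlap between PDGFRA+ and PDGFRA- libraries. The T4 library of GAL1- cells was the only GAL1- library that reached the range of the PDGFRA populations. The rise in GAL1+ over GAL1- cells was 0.81 (log2, SE 0.14, 1.76-fold, adjusted p = 0.000777).

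The membrane-type enzymes divided by direction. *Mmp14*, which activates the proenzyme of MMP2, had a log2 CPM of 7.13, 6.98 and 6.61 in GAL1- cells and of 8.04, 8.45 and 7.95 in GAL1+ cells of T3, T4 and T5. It was at 7.55, 8.43 and 7.86 in PDGFRA- cells and at 7.53, 7.39 and 7.34 in PDGFRA+ cells, so PDGFRA+ libraries lay below every PDGFRA- library, by 0.02 in T3. *Mmp14* rose in GAL1+ over GAL1- cells by 1.24 (log2, SE 0.19, 2.36-fold, adjusted p = 0.000454). The 8 of 8 endothelial markers measured also differed between these groups, with a summed CPM of 41.6 to 90.8 in GAL1- and 315 to 389 in GAL1+ libraries. Their sums overlapped between PDGFRA- (224 to 249) and PDGFRA+ libraries (162 to 336), and 0 of the 8 were called in PDGFRA+ relative to GAL1+ cells. In GAL1+ over GAL1- cells their median log2 fold change was 2.44, beside 4.45 for the pan-leukocyte markers. It was 5.73 for macrophage, 4.45 for microglia, 2.08 for mural and fibroblast and 0.76 for neutrophil markers. Medians were negative for T and NK cell (−0.16), astrocyte (−0.47), mature oligodendrocyte (−1.22) and neuron markers (−1.30). That of oligodendrocyte precursor and EGFR tumor cell markers was −2.33. The part of any of these sets in the level of *Mmp14* was not tested.

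*Mmp15*, another membrane-type enzyme, went the other way. Its log2 CPM was 10.57, 10.27 and 10.04 in GAL1- cells of T3, T4 and T5 and 8.71, 7.75 and 6.46 in GAL1+ cells. PDGFRA+ cells had 10.47, 10.0005 and 9.55 and PDGFRA- cells 9.96, 9.45 and 7.37. T3 was highest and T5 lowest in every population, and the T5 library of PDGFRA- cells was more than 2 log2 units below the other PDGFRA- libraries. *Mmp15* fell by 2.65 in GAL1+ relative to GAL1- cells (log2, SE 0.37, 6.28-fold lower, adjusted p = 0.000258).

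*Mmp16*, the last membrane-type enzyme, was almost constant in GAL1- cells, at a log2 CPM of 7.97, 8.01 and 8.05, and was at 6.25, 6.14 and 4.71 in GAL1+ cells. It was at 7.82, 7.54 and 7.46 in PDGFRA+ cells and at 7.27, 7.48 and 5.86 in PDGFRA- cells. As for *Mmp15*, the T5 libraries of GAL1+ and PDGFRA- cells were the lowest of their groups. *Mmp16* fell by 2.31 in GAL1+ relative to GAL1- cells (log2, SE 0.33, 4.97-fold lower, adjusted p = 0.000298). The sum of the 7 markers listed for oligodendrocyte precursors and EGFR tumor cells, all measured, had the same order of groups, with a CPM of 4497 to 5549 in GAL1-, 3570 to 5292 in PDGFRA+, 1099 to 3895 in PDGFRA- and 731 to 1934 in GAL1+ libraries. Of the 7, 6 fell in GAL1+ over GAL1- cells and 1 rose, *Lgals1*, the target of that sort. Their part in the levels of *Mmp15* and *Mmp16* was not tested.

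Of the inhibitors, *Timp2* rose and *Timp4* fell in GAL1+ over GAL1- cells. *Timp2* was at a log2 CPM of 5.21, 6.28 and 6.03 in GAL1- cells of T3, T4 and T5 and at 7.08, 8.15 and 8.06 in GAL1+ cells. PDGFRA- cells (6.11, 7.24 and 7.34) and PDGFRA+ cells (6.04, 7.22 and 7.30) had near-equal values in each tumor. T3 was the lowest tumor in all 4 populations. The rise in GAL1+ over GAL1- cells was 1.93 (log2, SE 0.11, 3.80-fold, adjusted p = 3.93e-05) and had the smallest standard error of the 10, with 1.87, 1.87 and 2.04 in the 3 tumors.

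*Timp4*, whose protein is the inhibitor best known from brain and heart, was at a log2 CPM of 4.73, 4.29 and 4.24 in GAL1- cells of T3, T4 and T5. In GAL1+ cells it was at 2.71, 1.02 and 0.79, from 111, 25 and 21 reads. PDGFRA+ cells had 4.55, 3.96 and 3.69, and PDGFRA- cells had 4.20, 3.57 and 2.54. GAL1+ libraries from T4 and T5 were thus the lowest of all 12. *Timp4* fell by 2.91 in GAL1+ relative to GAL1- cells (log2, SE 0.29, 7.52-fold lower, adjusted p = 5.51e-05).

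*Timp1* and *Timp3* did not pass in any comparison, and their tumors went in different directions. *Timp1*, an inhibitor induced in inflamed and injured tissue, was at a log2 CPM of 2.98, 3.85 and 5.11 in GAL1- cells of T3, T4 and T5 and at 4.17, 3.94 and 4.18 in GAL1+ cells. It was at 4.16, 4.67 and 3.89 in PDGFRA- cells and at 3.84, 3.50 and 5.03 in PDGFRA+ cells. The differences of GAL1+ from GAL1- cells in the 3 tumors were 1.19, 0.08 and −0.93, with an estimate of 0.11 (95% interval −0.89 to 1.12, adjusted p = 0.841). *Timp3*, which is held in the matrix and also inhibits ADAM proteases, was at 5.92, 7.30 and 7.90 in GAL1- cells, and at 6.82, 7.26 and 7.20 in GAL1+ cells. In PDGFRA- cells it was at 6.41, 8.56 and 6.73, and in PDGFRA+ cells at 6.51, 6.46 and 7.70. Its difference of GAL1+ from GAL1- cells was 0.90, −0.04 and −0.70 in T3, T4 and T5, with an estimate of 0.05 (95% interval −1.05 to 1.16, adjusted p = 0.935). These intervals leave room for changes of about 1 log2 unit either way, so the data do not show that either gene was the same in both populations.

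**Figure D2:**
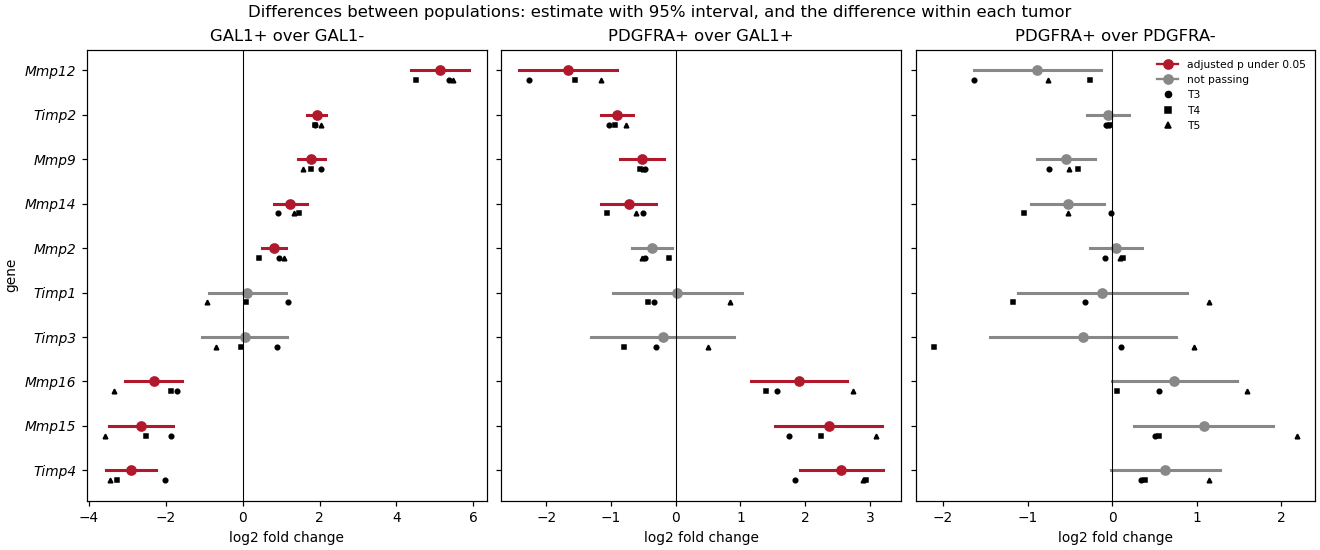
Log2 fold change (horizontal axis, own scale in each panel) of the 10 genes in GAL1+ over GAL1-, PDGFRA+ over GAL1+ and PDGFRA+ over PDGFRA- cells. Circles with lines are limma estimates with 95% intervals, red where the adjusted p over all genes was under 0.05 and grey otherwise, and black symbols are the differences within T3, T4 and T5. In GAL1+ over GAL1- cells 8 genes are red, in PDGFRA+ over GAL1+ cells 7, and in PDGFRA+ over PDGFRA- cells 0.

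The comparison of PDGFRA+ with GAL1+ cells sets the positive cells of the 2 sorts against each other, to ask how these EGFR+ populations differ, and it uses the same GAL1+ libraries as above. In PDGFRA+ cells 7 of the 10 genes passed the test, 3 higher and 4 lower, while 38% of all genes passed, 20.9% higher and 17% lower. That split of all called genes depended on the scaling, with 3803 higher and 3097 lower as deposited and 3038 higher and 4408 lower after each library was centred on its median. *Timp4* rose by 2.56 (log2, SE 0.29, adjusted p = 0.00136), *Mmp15* by 2.36 (SE 0.37, adjusted p = 0.00210) and *Mmp16* by 1.91 (SE 0.33, adjusted p = 0.00299), each in 3 of 3 tumors and with no overlap between the groups. These 3 passed under all 12 alternatives.

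The 4 genes with a lower level in the PDGFRA+ cells of this comparison depended more on the fit. *Mmp12* fell by 1.66 (log2, SE 0.34, adjusted p = 0.00568), *Timp2* by 0.91 (SE 0.11, adjusted p = 0.00136), *Mmp14* by 0.73 (SE 0.19, adjusted p = 0.0161) and *Mmp9* by 0.52 (SE 0.15, adjusted p = 0.0259). All 4 were lower in 3 of 3 tumors, but *Timp2* and *Mmp9* overlapped between groups, since tumors differed more than populations. Without the tumor block none of the 4 passed, with adjusted p of 0.0866 for *Mmp12*, 0.172 for *Timp2*, 0.0512 for *Mmp14* and 0.438 for *Mmp9*. Without it, calls of lower genes over all genes fell from 3097 to 939. *Mmp9* also did not pass without T3, T4 or T5 (adjusted p = 0.0743, 0.136 and 0.0997), *Mmp12* without T3 (0.0923) and *Mmp14* without T4 or T5 (0.0835 and 0.0787). Over the 12 alternatives the adjusted p ran from 0.00245 to 0.0923 for *Mmp12*, from 0.000711 to 0.172 for *Timp2*, from 0.00796 to 0.0835 for *Mmp14* and from 0.00707 to 0.438 for *Mmp9*. *Mmp2* was at −0.36 (SE 0.14, adjusted p = 0.0608) with no overlap between groups, *Timp1* at 0.03 and *Timp3* at −0.20. In all, 6 of the 10 genes had no overlap between PDGFRA+ and GAL1+ libraries, against 46% of all genes. The 10 of 10 pan-leukocyte markers also fell in PDGFRA+ relative to GAL1+ cells, with a median log2 fold change of −1.58, and their part in the lower *Mmp12*, *Mmp9*, *Mmp14* and *Timp2* was not tested.

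Between PDGFRA+ and PDGFRA- cells limma called 0 of the 10 genes, as it called 0 of all genes (0%). At an unadjusted p under 0.05 there were 4 of the 10 and 2137 of all genes, and the smallest adjusted p over all genes was 0.181. The 4 were *Mmp9* at −0.55 (log2, SE 0.15, adjusted p = 0.264), *Mmp12* at −0.89 (SE 0.34, adjusted p = 0.367), *Mmp14* at −0.53 (SE 0.19, adjusted p = 0.346) and *Mmp15* at 1.08 (SE 0.37, adjusted p = 0.324), and each had 1 direction in 3 of 3 tumors. *Mmp14* was the single gene of the 10 with no overlap between the groups, against 6.94% of all genes. The value for *Mmp15* was 0.61 without the T5 library of PDGFRA- cells and 0.53 without T5. That of *Mmp16* was 0.73 with this library and 0.41 without it, and that of *Timp4* was 0.63 and 0.39. For *Timp2* the estimate was −0.05 with a 95% interval from −0.30 to 0.20, and for *Mmp2* it was 0.05 with an interval from −0.26 to 0.35, so differences above about 0.35 log2 units are outside the intervals of these genes.

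The effect of the Galectin-1 sort differed from that of the PDGFR sort for the same 8 genes, by a test of the difference between the log2 fold changes of positive over negative cells. In this test 51.1% of all genes passed, 26.2% with a more positive Galectin-1 effect and 24.9% with a more negative one. The difference was 6.01 (log2, SE 0.47) for *Mmp12*, 2.34 (SE 0.22) for *Mmp9*, 1.97 (SE 0.16) for *Timp2*, 1.77 (SE 0.27) for *Mmp14* and 0.77 (SE 0.19) for *Mmp2*. It was −3.73 (SE 0.52) for *Mmp15*, −3.54 (SE 0.41) for *Timp4* and −3.05 (SE 0.47) for *Mmp16*. Each had 1 direction in 3 of 3 tumors, and without the T5 library of PDGFRA- cells all 8 still passed. *Mmp2* was lost without the tumor block (adjusted p = 0.0506), without T3 (0.119) and without T5 (0.0813), in a range of 0.00740 to 0.119 over 11 alternatives. *Timp1* (0.23, adjusted p = 0.777) and *Timp3* (0.40, adjusted p = 0.656) were not separated by the sorts.

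**Figure D3:**
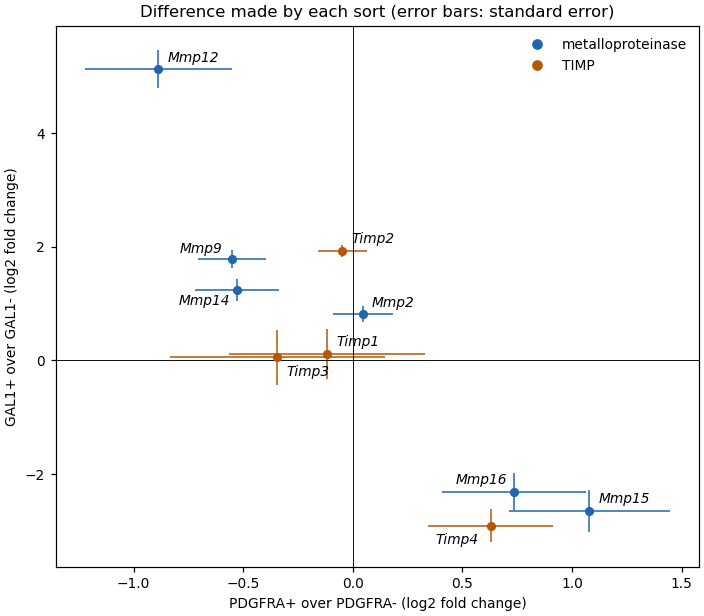
Log2 fold change of GAL1+ over GAL1- cells (vertical axis) against that of PDGFRA+ over PDGFRA- cells (horizontal axis, a narrower scale) for the 10 genes, with standard errors as error bars. Blue points are metalloproteinases and orange points are TIMPs. *Mmp12* is at 5.12 and −0.89, *Mmp15* at −2.65 and 1.08, and *Timp2* at 1.93 and −0.05.

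The remaining pairs of populations share libraries with the comparisons above. In PDGFRA- relative to GAL1- cells 7 of the 10 genes passed (23.1% of all genes), 4 higher (16.2%) and 3 lower (6.88%). *Mmp12* rose by 4.35 (log2, adjusted p = 0.000457), *Mmp9* by 1.82 (adjusted p = 0.000472), *Timp2* by 1.06 (adjusted p = 0.000689) and *Mmp14* by 1.04 (adjusted p = 0.00494), while *Mmp15* fell by 1.37 (adjusted p = 0.0276), *Mmp16* by 1.14 (adjusted p = 0.0353) and *Timp4* by 0.98 (adjusted p = 0.0370). The calls of the 3 lower genes were lost without T5, a fit in which calls of lower genes over all genes fell from 1251 to 19. Without the T5 library of PDGFRA- cells their values were −0.90, −0.82 and −0.74 and none passed (adjusted p = 0.106, 0.159 and 0.163). The adjusted p over 12 alternatives ran from 0.00625 to 0.219 for *Mmp15*, from 0.0145 to 0.159 for *Mmp16* and from 0.0139 to 0.358 for *Timp4*. Leaving out all libraries of T3 or T5 also ended the calls of *Mmp15* (adjusted p = 0.0619 and 0.0902), *Mmp16* (0.108 and 0.0756) and *Timp4* (0.0538 and 0.358). Leaving out T4 ended those of *Mmp15* (0.0518) and *Timp4* (0.0655), and leaving out T5 ended that of *Mmp14* (0.115, in a range of 0.00441 to 0.115). Without the tumor block, *Mmp12*, *Mmp9* and *Mmp14* were the 3 genes that passed, and calls over all genes fell from 4200 to 1444. Over all genes 2949 were called higher and 1251 lower as deposited, 2251 and 2514 after quantile normalization and 2451 and 2314 after median centring.

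In PDGFRA+ relative to GAL1- cells 3 of the 10 genes passed, all 3 higher and 0 lower, beside 8.27% of all genes (8.26% higher and 0.011% lower). *Mmp12* rose by 3.46 (log2, SE 0.34, adjusted p = 0.00164), *Mmp9* by 1.27 (SE 0.15, adjusted p = 0.00199) and *Timp2* by 1.01 (SE 0.11, adjusted p = 0.00176). Without the block *Mmp12* alone passed, and without T3 none of the 3 did (adjusted p = 0.0805 for each). Calls over all genes fell too, from 1504 to 612 without the block and 0 without T3. *Mmp15*, *Mmp16* and *Timp4* were at −0.29, −0.41 and −0.35 with adjusted p of 0.726, 0.592 and 0.594.

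In PDGFRA- relative to GAL1+ cells 4 of the 10 genes passed (20.1% of all genes), 3 higher (13.2%) and 1 lower (6.91%). *Timp4* rose by 1.93 (log2, adjusted p = 0.00638), *Mmp15* by 1.28 (adjusted p = 0.0385) and *Mmp16* by 1.17 (adjusted p = 0.0365), and *Timp2* fell by 0.87 (adjusted p = 0.00459). All 4 kept 1 direction in 3 of 3 tumors and overlapped between groups. Without the block and without T4 none of the 4 passed, and without T3 *Mmp15* and *Mmp16* did not (adjusted p = 0.152 and 0.169, in ranges of 0.00566 to 0.259 and 0.0108 to 0.182 over 12 alternatives). Calls over all genes fell too, from 3652 to 725 without the block, 0 without T4 and 788 without T3. Over all genes 2395 were called higher and 1257 lower as deposited, and 1920 and 2178 after median centring. *Mmp9* was at 0.03 (95% interval −0.31 to 0.38) in this comparison.

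Related genes were taken from 3 lists. Of 17 other metalloproteinases listed, 11 were measured, and in GAL1+ over GAL1- cells 7 rose (28.9% of all genes) and 1 fell (29.3%), with a median log2 fold change of 1.91 beside −0.03 over all genes. *Mmp19* rose by 4.33 (SE 0.31, adjusted p = 3.93e-05), *Mmp13*, a collagenase, rose by 3.84 (SE 0.49, adjusted p = 0.000160), and *Mmp24*, a membrane-type enzyme like *Mmp15* and *Mmp16*, fell by 2.28 (SE 0.39, adjusted p = 0.000797). In PDGFRA+ relative to GAL1+ cells 1 of the 11 rose, *Mmp24* by 2.01, and 4 fell, among them *Mmp19* by 1.80 and *Mmp8*, the neutrophil collagenase, by 1.75, with a median of −0.58 and with 20.9% of all genes called higher and 17% lower.

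Of 27 ADAM and ADAMTS proteases listed, relatives that TIMPs also inhibit in part, 24 were measured. In GAL1+ over GAL1- cells 7 rose and 8 fell, with a median of −0.62, in a comparison where 28.9% of all genes rose and 29.3% fell. *Adam8*, a protease of myeloid cells, rose by 4.87 (SE 0.34, adjusted p = 3.93e-05) and *Adam33* by 3.53, while *Adamts3*, a procollagen-cleaving enzyme, fell by 2.50 and *Adamts17* by 2.01. In PDGFRA+ relative to GAL1+ cells 8 rose, led by *Adamts3* at 2.19 and *Adam12* at 1.67, and 5 fell, with *Adam8* at −1.79 and *Adam33* at −1.34, beside 20.9% higher and 17% lower over all genes.

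The list of regulators held activators, binding partners and the plasminogen system, with 14 of 15 genes measured. In GAL1+ over GAL1- cells 7 rose and 3 fell, with a median of 0.15, beside the same 28.9% and 29.3% of all genes. *Plau*, the urokinase that turns plasminogen into plasmin, rose by 4.85 (SE 0.46, adjusted p = 4.86e-05) and its receptor *Plaur* by 3.31 (SE 0.33, adjusted p = 5.63e-05). *Pcsk6*, a proprotein convertase, fell by 2.50 and *A2m*, a broad protease inhibitor, by 2.33. In PDGFRA+ relative to GAL1+ cells 3 rose, among them *Pcsk6* by 2.21 and *A2m* by 2.07, and 4 fell, with *Plau* at −1.60 and *Plaur* at −1.45, again beside 20.9% and 17% of all genes. In PDGFRA+ relative to PDGFRA- cells no gene of the 3 lists passed, in a comparison where limma called 0 of all genes and 2137 had an unadjusted p under 0.05.

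**Figure D4:**
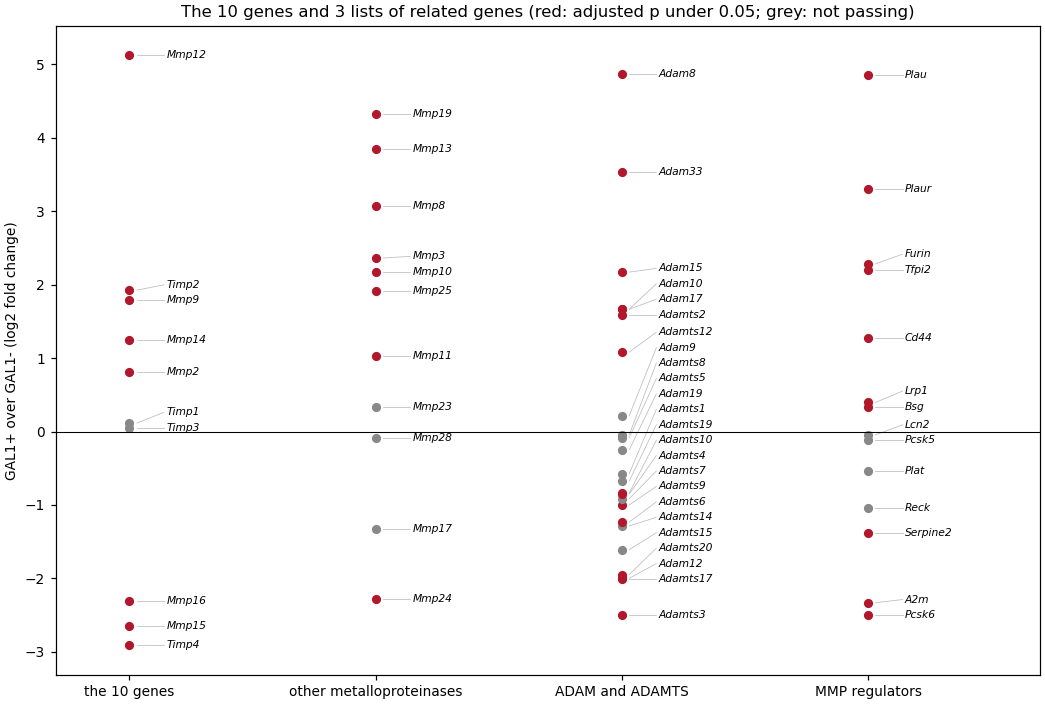
Log2 fold change of GAL1+ over GAL1- cells (vertical axis) for the 10 genes and for 11 other metalloproteinases, 24 ADAM and ADAMTS proteases and 14 regulators. Each point is a gene, red where the adjusted p over all genes was under 0.05 and grey otherwise. *Mmp12*, *Adam8* and *Plau* head their columns at 5.12, 4.87 and 4.85.

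Genes of like pattern were sought among 13018 genes by Pearson correlation of log2 CPM over the 12 libraries, which share tumors, and these values are descriptions. *Adam8* (0.990), *Trim30d* (0.990) and *Fcgr2b* (0.986), which encodes an Fc receptor of immune cells, were the genes most like *Mmp12*. *Mmp15* was most like *Bmp7* (0.997), a growth factor of the BMP family, and *Mmp16* was most like *Igsf10* (0.994). *Timp4* was most like *Nap1l5* (0.997), *Snurf* (0.996) and *Snrpn* (0.995), *Timp2* was most like *Zfhx3* (0.983) and *Mmp14* was most like *App* (0.970). The best match was lower for *Mmp2* (*Stard8*, 0.938), *Mmp9* (*Eml3*, 0.936), *Timp1* (*Rgs16*, 0.946) and *Timp3* (*Epha7*, 0.939).

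All 4 inhibitor genes overlap the span of another gene in RefSeq. So do *Mmp2*, with the long noncoding RNA gene *Gm45472*, and *Mmp16*, with the pseudogene *Gm11860*, both on the opposite strand and not measured. Whether their exons overlap was not examined, and whether the counting used strand is not given in the sources used here. How far the pairs share reads is therefore not known. *Timp1*, *Timp3* and *Timp4* lie opposite *Syn1*, *Syn3* and *Syn2*, genes of synaptic vesicle proteins, and *Timp2* shares its strand with *Cep295nl*. *Cep295nl* followed *Timp2*, with a log2 CPM of 1.22 to 2.43 in GAL1-, 2.87 to 4.19 in GAL1+, 0.81 to 3.76 in PDGFRA- and 1.69 to 3.20 in PDGFRA+ libraries and a Pearson r of 0.926 over the 12 libraries, given as a description. *Syn2* followed the levels of *Timp4*, with means of 2.41 ± 1.15 in GAL1+ libraries, 4.02 ± 0.61 in PDGFRA-, 4.73 ± 0.21 in PDGFRA+ and 5.10 ± 0.21 in GAL1- libraries (log2 CPM). *Syn1* and *Syn3* also had their lowest levels in GAL1+ cells (2.20 ± 0.91 and 2.94 ± 0.85) and their highest in GAL1- cells (4.73 ± 0.18 and 4.85 ± 0.15), an order that *Timp1* and *Timp3* did not show. Over the 12 libraries the Pearson r was 0.024 for *Timp1* with *Syn1*, 0.044 for *Timp3* with *Syn3* and 0.923 for *Timp4* with *Syn2*.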

How the data were processed

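From each of 3 mouse GBMs, EGFR+ cells were sorted into 4 populations, and total RNA was sequenced after a stranded total RNA preparation from low input. The authors trimmed reads with fastp, aligned them with STAR to mm39, used featureCounts to count exon reads, with those mapping to several places entered as fractions, required a CPM above 1 in 3 or more samples of a gene, and applied TMM and voom. The deposited values are log2 CPM with voom's offset of 0.5 reads, for 18180 genes and 12 samples. Normalized values of this kind hide depth, so the lowest value of each library was taken as 0 reads and the rest were scaled back to reads. Between 41.7% and 59.4% of recovered values per library were whole within 0.02, which includes reads counted as fractions, and count models were not used.

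With limma 3.58.1 (R 4.3.3), 1 model of population and tumor was fitted to the 12 samples, the tumor serving as a block and the prior variance following the mean level (degrees of freedom 6 residual, 3.49 prior). Tests were two-sided, with Benjamini-Hochberg adjustment over all genes of a comparison. The block rests on tumor numbers in the labels. After subtraction of group means, libraries of the same tumor correlated across genes with a mean r of 0.486 (18 pairs, 0.140 to 0.662), and those of different tumors with −0.243.

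The 10 genes, the lists and the rule for naming were chosen with earlier results of these data known. The rule names the 10 genes and, from each list, the 2 largest positive and 2 largest negative changes among called genes in GAL1+ over GAL1- and PDGFRA+ over GAL1+ cells. It also names the 3 genes of most similar pattern for each, with a mean log2 CPM of at least 1, of which some are printed. The fit was tested on simulated data. Exon lengths are from GENCODE M21 and upstream sequence from RefSeq. These are of another build than mm39, so coordinates are given for the sequences alone. Alternatives were no block, the 2 groups alone, no trend, voom weights on recovered reads, log2(CPM + 1), a filter at a log2 CPM above 1 in at least 3 samples, quantile normalization, median centring, and leaving out each tumor or the T5 library of PDGFRA- cells. Some items of the model and the lists are not reported here.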

Additional observations from a re-analysis of the deposited data

Results flagged for a closer look

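For 8 of the 10 genes the difference of positive from negative cells in the Galectin-1 sort was unlike that in the PDGFR sort, by the test of the difference itself (limma with the tumor as a block, adjusted over all genes, a test that 51.1% of all genes passed). The difference between the sorts was 6.01 for *Mmp12* (log2, adjusted p = 0.000261), 2.34 for *Mmp9* (adjusted p = 0.000274), 1.97 for *Timp2* (adjusted p = 0.000261), 1.77 for *Mmp14* (adjusted p = 0.000691) and 0.77 for *Mmp2* (adjusted p = 0.00874). It was −3.73 for *Mmp15* (adjusted p = 0.000486), −3.05 for *Mmp16* (adjusted p = 0.000702) and −3.54 for *Timp4* (adjusted p = 0.000294). Each of the 8 had the same direction in 3 of 3 tumors. For *Mmp9*, *Mmp12* and *Mmp14* the estimates of the sorts had opposite signs, as they had for *Mmp15*, *Mmp16* and *Timp4*, although the PDGFR estimates did not pass their own test. Summed markers of leukocytes, of endothelial cells and of tumor cells also differed more between GAL1+ and GAL1- than between PDGFRA+ and PDGFRA- libraries. Median log2 fold changes larger in size in the PDGFR sort were those of mature oligodendrocyte (−2.20 against −1.22), T and NK cell (−0.49 against −0.16) and neutrophil markers (−0.87 against 0.76). Summed CPM of mature oligodendrocyte markers was 631 to 952 in PDGFRA- and 228 to 285 in PDGFRA+ libraries. The part of these marker sets in the differences between sorts was not tested. With 3 samples a group, no test for an outlying value of a gene was made.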

How the results depend on the processing

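Of 830 values computed for the 10 genes under 12 alternatives, 749 kept their direction and side of the threshold, 52 were no longer past it, 5 newly passed and 24 changed sign. In GAL1+ over GAL1- cells 8 genes were called under all 12, beside 8071 to 10938 of all genes. The fit of the 2 groups alone was not run for the difference between the sorts, which needs all 4. Without the replicate block the genes called were 3 in PDGFRA+ over GAL1+ (7 with it), 0 in PDGFRA- over GAL1+ (4), 1 in PDGFRA+ over GAL1- (3) and 3 in PDGFRA- over GAL1- cells (7), and otherwise the block moved no count past 1.5 times. In the same order, calls over all genes without the block were 3154 (6900 with it), 725 (3652), 612 (1504) and 1444 (4200). The 2 groups alone gave 6 in PDGFRA+ over GAL1- (3386 of all genes) and 3 in PDGFRA- over GAL1- cells (1328 of all genes). Without a trend 2 were called in PDGFRA- over GAL1+ cells (2693 of all genes), and without the T5 library of PDGFRA- cells 4 in PDGFRA- over GAL1- cells (2009 of all genes). Leaving out a tumor gave 5 in PDGFRA+ over GAL1+, 0 to 4 in PDGFRA- over GAL1+, 0 to 3 in PDGFRA+ over GAL1- and 3 to 5 in PDGFRA- over GAL1- cells. Over all genes, in the same order, it gave 2110 to 4863, 0 to 3647, 0 to 1126 and 920 to 3287. These fits rest on fewer samples.

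Changes of sign touched *Timp1*, *Timp2*, *Timp3* and *Mmp9*, in values that were not called. *Timp2* in PDGFRA+ over PDGFRA- cells was 0.0087 after quantile normalization and ran from −0.059 to 0.020 with a tumor or that library left out. Quantile normalization gave −0.16 for *Timp3* in GAL1+ over GAL1-, −0.11 for *Timp1* in PDGFRA+ over GAL1+ and −0.021 for *Mmp9* in PDGFRA- over GAL1+ cells, and median centring gave −0.13 and −0.11 for the last 2. With a tumor or that library left out *Timp1* ran from −0.74 to 0.41 in PDGFRA+ over PDGFRA-, −0.42 to 0.64 in GAL1+ over GAL1-, −0.38 to 0.26 in PDGFRA+ over GAL1+, −0.15 to 0.67 in PDGFRA- over GAL1+, −0.22 to 0.39 in PDGFRA+ over GAL1-, −0.20 to 0.997 in PDGFRA- over GAL1- cells and −0.41 to 1.38 in the difference between sorts. *Timp3* ran from −1.002 to 0.54, −0.37 to 0.43, −0.56 to 0.10, −0.44 to 0.69, −0.52 to 0.20, −0.34 to 0.87 and −0.44 to 1.43 in the same order, and *Mmp9* from −0.082 to 0.13 in PDGFRA- over GAL1+ cells. The cause was not tested. Median centring moved the median over all genes from 0.01 to −0.15 in PDGFRA+ over GAL1+ cells and quantile normalization moved it from −0.02 to −0.15 in PDGFRA+ over GAL1- cells. With 3 samples a group, the standard errors of *Timp1* (0.45) and *Timp3* (0.49) limit what could be detected.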

Other observations

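The difference in log2 CPM between an enzyme and the inhibitor usually named with it was set out after the values had been seen, with no test. It compares the balance of a pair between populations and not the amounts of the 2 transcripts. *Mmp9* minus *Timp1* was 0.16, 1.68 and 0.61 in GAL1+ cells and −0.68, −0.01 and −1.88 in GAL1- cells of T3, T4 and T5, with no overlap. Of single genes, 60.6% had no overlap between these groups, and the share among pairs was not computed. *Mmp2* minus *Timp2* was −1.89, −2.86 and −2.72 in GAL1+ cells and −0.95, −1.41 and −1.77 in GAL1- cells, so this pair shifted toward the inhibitor in GAL1+ cells. *Mmp14* minus *Timp2* was 0.95, 0.30 and −0.11 in GAL1+ and 1.92, 0.69 and 0.58 in GAL1- cells, lower in GAL1+ cells in 3 of 3 tumors but with overlap between groups. In PDGFRA- and PDGFRA+ cells, *Mmp9* minus *Timp1* was 0.71 ± 0.24 and 0.27 ± 1.17 (mean ± SD, n = 3). *Mmp2* minus *Timp2* was −2.03 ± 0.67 and −1.94 ± 0.58 in the same order. *Mmp14* minus *Timp2* was 1.05 ± 0.47 and 0.57 ± 0.80.

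Across the 12 libraries *Mmp15* and *Mmp16* correlated with a Pearson r of 0.97 and *Mmp15* and *Timp4* with 0.95, whereas *Timp2* and *Timp4* had −0.87 and *Timp1* and *Timp3* had 0.81. The 12 points share tumors and sorts, so these values describe the levels and were given no test. *Timp1* and *Timp3* also shared *Angptl2* among their 3 genes of most similar pattern (r = 0.877 and 0.936), although neither gene passed in any comparison of populations.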
